A study of Arabidopsis thaliana with 12 samples.

Results

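The comparison described here set root tips of the Arabidopsis thaliana line 6-6 against those of wild type (WT), both kept on MS medium without added salt. Its members were the nuclear genes of the authors' deposited table for this comparison that had been tested and whose larger group value was at least 1 FPKM (fragments per length of transcript and per size of library). There were 18743 such genes of 33557 listed. The seedlings were 8 days old, raised at 22 °C under a day of 16 h light and 8 h dark, and spent their last 24 h on fresh medium before about 1 cm of each root tip was cut. Both groups used here, WT on MS and 6-6 on MS, had 3 samples, and the matching groups on NaCl, also of 3 samples each, are used below as a second measurement of the same contrast. The labels do not say what 6-6 is, how it was made or how many lines carry the change, while ITPK4 is the gene named in the title of the series. No ecotype is given for either line, nor is the dose of NaCl. The depth of the libraries is unknown.

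The deposited tables hold 1 value per group, with its samples already combined, so no value here carries an error from replicates. A gene was called, and is said to be higher or lower, where its q-value in the authors' deposited table was below 0.05. Separate cultures are not mentioned for the samples of a group, and the spread behind these q-values may be technical. Effects are centred log2 ratios, which are the log2 of the 6-6 value over the WT value minus the median of that quantity over the 18743 genes (-0.07). Because whole root tips were sampled, fewer cells of a type and less RNA per cell cannot be told apart.

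ITPK4 belongs to a family of kinases that add phosphate to inositol phosphates, the soluble molecules through which plants store phosphorus as phytate and report phosphate status. Several of the gene groups that differed between the lines have well known roles in roots. Extensins are structural glycoproteins of the cell wall, rich in blocks of serine followed by hydroxyproline, and are cross-linked into the wall by peroxidases. Aliphatic glucosinolates are sulfur-rich defence compounds made from chain-elongated methionine. Triterpenes such as marneral and thalianol are specialised root metabolites whose synthesis genes lie next to each other on the chromosome.

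In 6-6 most wall extensin genes and a few cold and dehydration genes were higher, while 11 of 20 genes of aliphatic glucosinolate synthesis and 8 of 17 triterpene genes were lower. There were 540 calls among the 18743 genes (2.88%), with 174 genes higher in 6-6 (0.928%) and 366 lower (1.95%). The lower genes were more numerous but changed less. Their median centred log2 ratio was -0.45 against 0.82 for the higher genes, and 20 of them were lower by a log2 of at least 1 where 64 genes were higher by that much. Over 5 equal bins of the genes by mean FPKM, the highest held 120 lower and 48 higher genes and the lowest 35 and 36. The part of expression level in this difference was not tested. For 2 of the higher genes, SCRL28 and AT1G16515, the WT value was listed at 0, and no ratio is given. At a q-value below 0.01 there were 96 higher and 144 lower genes. The deposited table also holds a test statistic for each gene. Taking p-values from it under a normal distribution, and adjusting them over the same genes, gave 50 higher and 38 lower genes. The higher genes then made up 56.8% of the calls instead of 32.2%. This is called the stricter reading below.

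**Figure D1:**
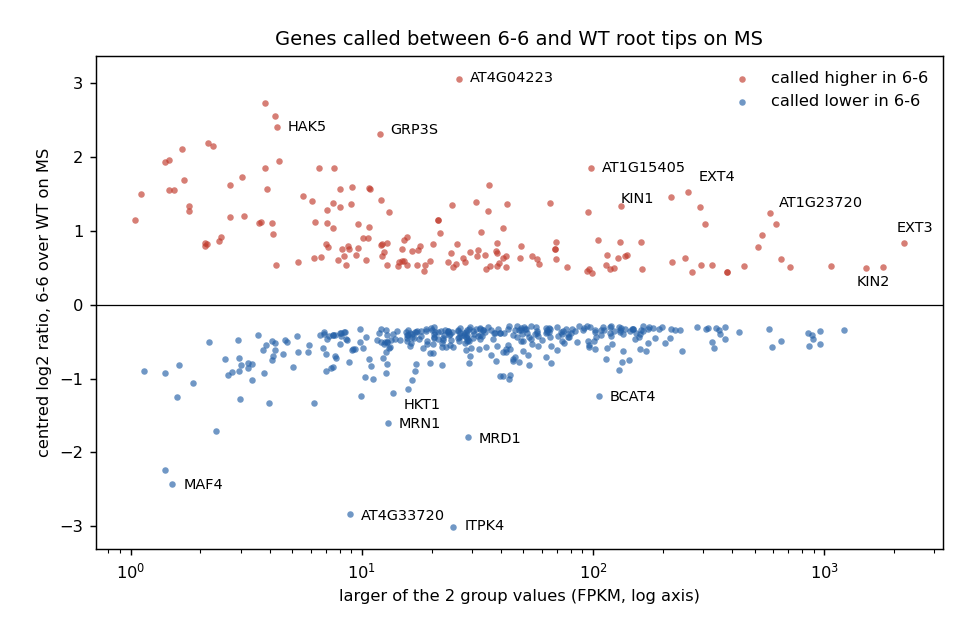
Called genes with both group values above 0. The x axis gives the larger of the WT and 6-6 values in FPKM on a log scale, and the y axis the centred log2 ratio of 6-6 over WT on MS. Each point is 1 gene, red where higher and blue where lower in 6-6. ITPK4 lies lowest at -3.01, and the lower genes otherwise crowd between about 0 and -1 while the higher genes spread further from 0.

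ITPK4 (AT2G43980, chromosome 2, 18208253 to 18211644, TAIR10) had the lowest ratio of all called genes. Its value was 24.9 FPKM in WT and 2.95 FPKM in 6-6, a centred log2 ratio of -3.01. The other kinases of inositol phosphate synthesis were not called. ITPK1 stood at 75.5 FPKM (WT) and 70.2 FPKM (6-6), IPK1, which adds the last phosphate of phytate, at 26.4 and 24.4 FPKM, and IPK2a at 45.6 and 36.3 FPKM. The myo-inositol-1-phosphate synthase MIPS1, which feeds the whole pathway, stood at 62.2 and 60.4 FPKM. Of 22 inositol phosphate genes used, ITPK4 was the 1 lower and MIOX2 the 1 higher (4.55% each). Of all genes used 1.95% were lower and 0.928% higher. MIOX2 encodes a myo-inositol oxygenase, which turns inositol into a precursor of wall sugars, and went from 26.3 FPKM in WT to 64.9 FPKM in 6-6.

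Most extensin genes were higher in 6-6. Of 17 genes used whose description names an extensin, 14 were higher in 6-6 (82.4%, against 0.928% of all genes used), none was lower, and their median centred log2 ratio was 1.09 (0 over all genes by construction). This list was drawn up after the values had been seen. A wider list of extensins and other proline-rich wall proteins, which also holds many short proline-rich proteins, had 18 higher and 1 lower of 84, with a median of 0.16. EXT3, an extensin needed for wall assembly in the embryo, was already among the most abundant transcripts and went from 1303 FPKM in WT to 2223 FPKM in 6-6. EXT4 went from 94.2 to 258 FPKM, a centred log2 ratio of 1.52. The repeat-rich AT1G23720 went from 258 to 582 FPKM and AT3G54580 from 122 to 289 FPKM. Among the less abundant members, EXT13 went from 91.2 to 137 FPKM, EXT12 from 22.5 to 38.3 FPKM, EXT10 from 17.2 to 42.4 FPKM and EXT6 from 12.4 to 31.1 FPKM. The leucine-rich repeat extensins LRX1 and LRX2, which act in root hair walls, went from 39.0 to 56.9 FPKM and from 18.4 to 25.6 FPKM. The 3 members not called were AT1G26250 (6.04 and 8.70 FPKM), AT2G43150 (790 and 1003 FPKM) and the extensin-like ELP (910 and 972 FPKM). The neighbours AT4G08400 and AT4G08410 were both higher, but 51.4% and 40.3% of their 50-base stretches occur in another gene, so their separate values are uncertain.

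What these genes share can be read in their coding sequence, in which a serine codon is followed by a block of proline codons again and again. The stretches below show 120 coding bases each of 4 called genes and of ELP, which carries the name but not the repeat. Capitals mark a serine codon with 3 or more proline codons after it, in frame. They lie, in TAIR10.1, at chr1:28896659-28896778 (EXT4, minus strand), chr1:7454725-7454844 (EXT3, minus strand), chr3:20203459-20203578 (AT3G54580, minus strand), chr1:4071636-4071755 (LRX1, plus strand) and chr1:4090470-4090589 (ELP, minus strand).
EXT4: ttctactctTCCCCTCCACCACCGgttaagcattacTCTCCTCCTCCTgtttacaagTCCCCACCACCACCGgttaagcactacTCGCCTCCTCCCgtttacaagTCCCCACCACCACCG
EXT3: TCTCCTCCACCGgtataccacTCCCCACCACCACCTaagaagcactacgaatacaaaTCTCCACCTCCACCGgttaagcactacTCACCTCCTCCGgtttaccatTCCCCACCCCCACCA
AT3G54580: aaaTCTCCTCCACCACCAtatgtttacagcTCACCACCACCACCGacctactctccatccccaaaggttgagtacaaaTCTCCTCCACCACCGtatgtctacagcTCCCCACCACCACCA
LRX1: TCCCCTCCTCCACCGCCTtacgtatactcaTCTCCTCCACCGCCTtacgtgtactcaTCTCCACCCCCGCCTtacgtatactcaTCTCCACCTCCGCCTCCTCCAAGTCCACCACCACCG
ELP: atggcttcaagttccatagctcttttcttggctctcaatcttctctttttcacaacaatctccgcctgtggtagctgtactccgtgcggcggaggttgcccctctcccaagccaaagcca

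This repeat was also counted in the coding sequence of all 18280 genes used that have one in RefSeq. The count was added after the values had been seen and is no independent support, since it picks out mostly the same genes. Among 22 genes with 10 or more repeats, 18 were higher in 6-6 (81.8%), none was lower, and the median centred log2 ratio was 0.94. Among 27 genes with 3 to 9 repeats 4 were higher and 1 was lower, with a median of 0.20. Genes with no repeat were higher in 130 of 17737 (0.733%). The 22 genes held 11 to 73 repeats each, and 16 of them are in the list by description. The others include HRGP1, a hydroxyproline-rich glycoprotein that went from 55.0 to 132 FPKM, LRX3 (29.4 to 48.7 FPKM), AT4G18670 (20.9 to 40.9 FPKM) and PERK9, a proline-rich receptor-like kinase (10.4 to 14.96 FPKM). The 2 genes whose ratio was near 0, AT3G19020 and AT1G49490, both lay near 2 FPKM in each group. Under the stricter reading 13 of the 22 remained higher, and the calls of EXT3, EXT13, LRX1, LRX2 and PERK9 were lost. EXT11, which the files describe as a transposable element gene and RefSeq as a pseudogene, went from 5.47 to 10.8 FPKM.

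**Figure D2:**
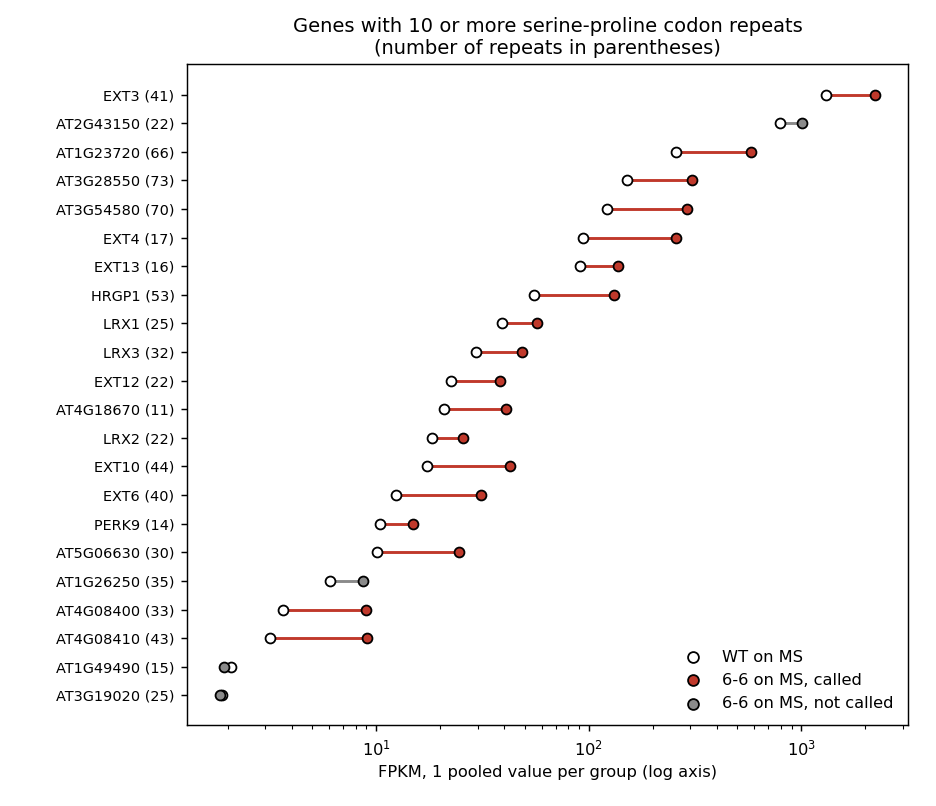
Values of the 22 genes with 10 or more serine-proline codon repeats. The x axis is FPKM on a log scale, with the WT value on MS as an open circle and the 6-6 value as a filled circle, red where the gene was called. The y axis names the genes, ordered by WT value, with the number of repeats. All 18 called genes lie to the right in 6-6, from AT4G08410 (3.15 to 9.08 FPKM) up to EXT3 (1303 to 2223 FPKM).

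Base composition moved with this result. The median GC content of the transcript was 46.3% for the 22 genes and 41.3% for all genes used. Over 5 equal bins of the genes by GC content, the median centred log2 ratio went from -0.05 in the lowest bin, with 39 higher and 148 lower genes, to 0.05 in the highest, with 63 higher and 39 lower. Among 316 genes with no repeat and a GC content at or above that of the median repeat gene, 6 were higher (1.9%) and 1 was lower, with a median of 0.11. The part of base composition in the extensin result was not tested.

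Other wall and surface proteins were split between directions. Of all genes used 0.928% were higher and 1.95% lower. Class III peroxidases, which cross-link wall polymers, had 6 higher (11.1%) and 5 lower (9.26%) of 54, with a median of 0.11. AT5G64120 went from 294 to 536 FPKM and AT2G18150 from 1.38 to 3.89 FPKM, while AT1G49570 went from 6.19 to 2.35 FPKM. Lipid transfer proteins, small secreted proteins that bind lipids, had 8 higher (15.4%) and 6 lower (11.5%) of 52. AT4G15160 went from 305 to 619 FPKM and LTP5 from 11.7 to 21.8 FPKM, and AT4G12520 and AT4G12545 went from 649 to 442 FPKM and from 899 to 619 FPKM. Of the 50-base stretches of AT4G12520 47.3% occur in another gene. Of 46 arabinogalactan proteins 6.52% were higher, AGP9 (1324 to 1791 FPKM), AGP4 (785 to 1076 FPKM) and AGP19 (10.45 to 16.4 FPKM). Another 4.35% were lower, AGP15 (854 to 622 FPKM) and AGP12 (576 to 435 FPKM). Glycine-rich proteins had 4 higher (8%) and 2 lower (4%) of 50, led by GRP3S, which went from 2.52 to 11.9 FPKM. Expansins, which loosen walls, had EXPA4 higher (32.9 to 48.3 FPKM) and EXLB1 lower (10.104 to 6.39 FPKM) of 20, and the xyloglucan-modifying enzyme XTH17 was the 1 lower of 23 (205 to 136 FPKM). With the stricter reading, the calls kept among the genes named here were those of AT5G64120, AT1G49570, AT4G15160 and GRP3S, and the calls of all the named arabinogalactan proteins, expansins and XTH17 were lost.

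Genes of aliphatic glucosinolate synthesis were lower along most of the pathway. Of 20 genes used 11 were lower (55.0%, against 1.95% of all genes used), none was higher, and the median centred log2 ratio was -0.59. The first step, removal of the amino group of methionine by BCAT4, went from 106 FPKM in WT to 42.9 FPKM in 6-6, a centred log2 ratio of -1.23. BCAT4 shares its locus with another gene in the files. In the chain elongation that follows, the condensing enzymes MAM1 (19.7 to 10.8 FPKM) and IMS2 (102 to 63.6 FPKM) were lower, and so were the isomerase subunits IPMI1 (143 to 81.1 FPKM) and IPMI2 (95.9 to 61.5 FPKM). The dehydrogenase of the same cycle, IMD1, was not matched by the list and was added after its values were seen. It went from 133 to 74.3 FPKM, in a shared locus. BAT5, which carries keto acids across the plastid membrane, went from 62.7 to 36.7 FPKM.

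The core steps gave the same direction. CYP79F2, which makes the aldoxime, went from 47.8 to 26.5 FPKM, and CYP83A1, which oxidises it, from 52.8 to 28.6 FPKM. The glutathione S-transferases GSTF11 (15.9 to 6.87 FPKM) and GSTU20 (69.6 to 43.3 FPKM) and the sulfotransferase SOT18 (85.1 to 57.0 FPKM) were lower. Steps shared with indole glucosinolates or with other pathways lay nearer to 0 and were not called. SUR1 stood at 73.5 and 66.4 FPKM and UGT74B1 at 72.0 and 69.7 FPKM. The uncalled genes also included the sulfotransferase SOT17 and the side-chain enzyme AOP2 of the aliphatic pathway. MYB28, the transcription factor that drives the pathway, went uncalled at 24.7 and 19.1 FPKM, where the authors' deposited table gives q = 0.0655. AK3, an aspartate kinase upstream of methionine that was added after its values were seen, was lower (22.2 to 12 FPKM). Indole glucosinolate synthesis and breakdown had 1 higher (2.63%) and 3 lower (7.89%) of 38, with a median of 0.00. Under the stricter reading 8 of the 11 calls remained.

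**Figure D3:**
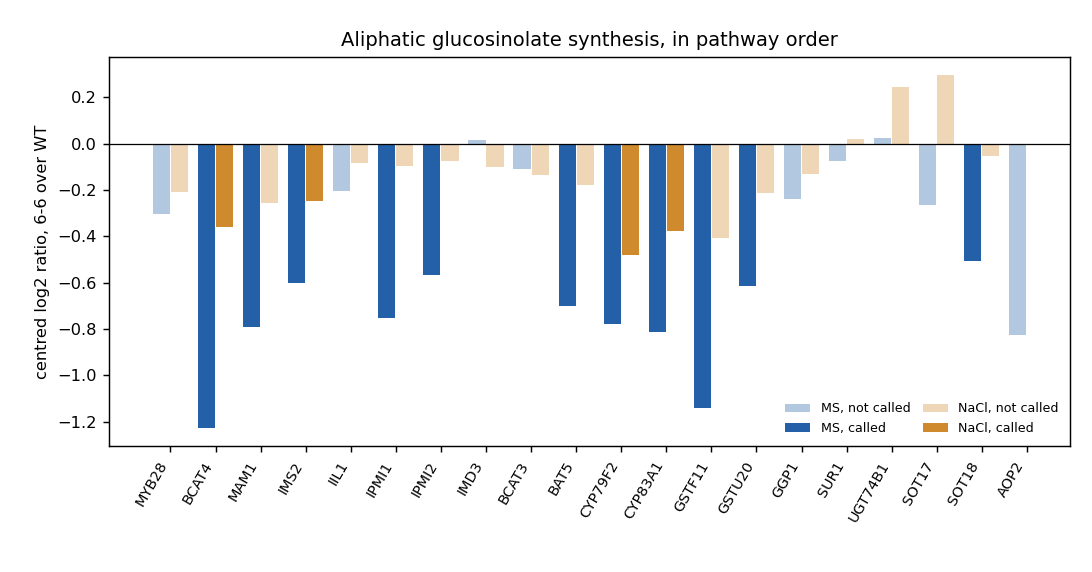
Centred log2 ratio of 6-6 over WT for the 20 aliphatic glucosinolate genes, in pathway order from the regulator MYB28 to the side-chain enzyme AOP2. Blue bars are the comparison on MS and orange bars that on NaCl, in full colour where the gene was called and pale where it was not. On MS 11 bars are called, the longest for BCAT4 at -1.23 and GSTF11 at -1.14. AOP2 has no NaCl bar because both values there were under 1 FPKM.

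Triterpene genes were lower in the marneral and thalianol clusters and in part of a window on chromosome 4. Of 17 triterpene genes used 8 were lower (47.1%, against 1.95% of all genes used) and 1 was higher. Their median centred log2 ratio was -0.31. In the marneral cluster on chromosome 5 (17021310 to 17064047 with its flanking genes, TAIR10) the synthase gene MRN1 went from 12.96 to 4.08 FPKM, a centred log2 ratio of -1.60. Its neighbours CYP705A12 (22.2 to 14.8 FPKM) and CYP71A16 (77.7 to 56.4 FPKM) were lower too, and the flanking AT5G42570 stood at 104 and 98.9 FPKM. In the thalianol cluster (window on chromosome 5, 19428888 to 19464957) all 4 synthesis genes that the window held were lower. The thalianol synthase THAS1 went from 159 to 112 FPKM, CYP708A2 from 115 to 72.8 FPKM, CYP705A5 from 170 to 105 FPKM and the acyltransferase AT5G47980 from 37.5 to 27.3 FPKM. AT5G48020, just beyond it, stood at 48.7 and 47.7 FPKM, and the window held no gene on the other side, before AT5G47980.

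A wider window on chromosome 4 (8730723 to 8816805), around the arabidiol and baruol synthase genes, had 4 lower of 10 genes used. These were CYP705A1 (10.7 to 6.14 FPKM) and the adjoining AT4G15390 (327 to 219 FPKM), CYP702A5 (16.4 to 7.69 FPKM) and BIA1 (12.8 to 6.97 FPKM). The arabidiol synthase gene PEN1 stood at 11.3 and 8.66 FPKM and was not called. The baruol synthase gene BARS1 (0.333 and 0.303 FPKM) was too low to be used. The windows were chosen after the values were seen. The 1 higher triterpene gene was LUP1, a lupeol synthase in a shared locus (1.23 to 2.098 FPKM), and the sterol synthase CAS1 stood at 58.8 and 54.2 FPKM. Under the stricter reading 3 of the 8 lower calls remained, those of MRN1, CYP702A5 and CYP705A5.

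**Figure D4:**
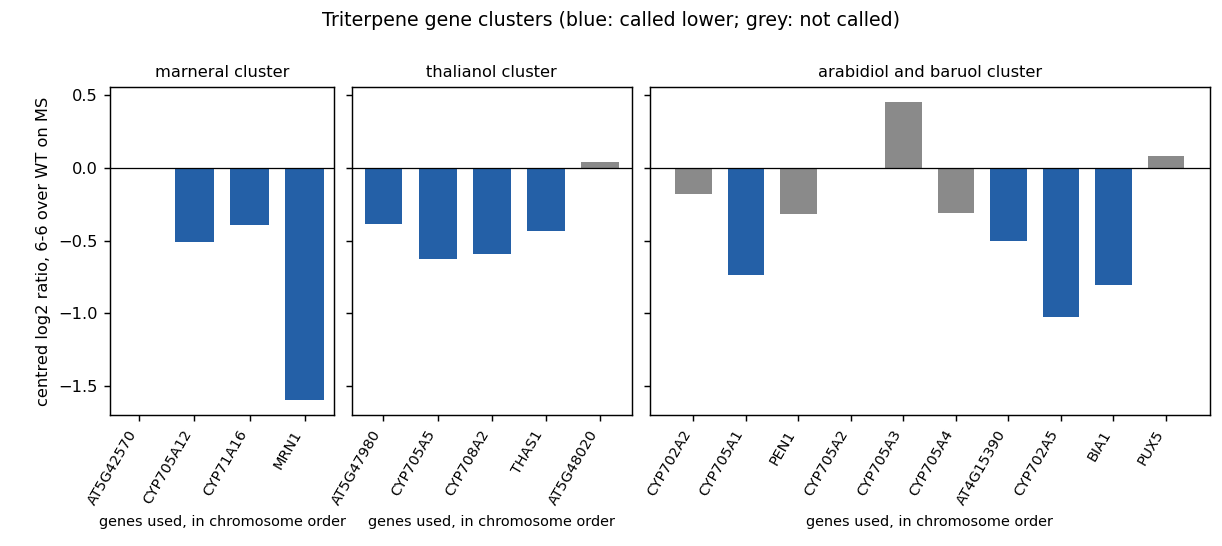
Centred log2 ratio of 6-6 over WT on MS (y axis) for each gene used in 3 windows holding triterpene clusters, in chromosome order (x axis). Blue bars were called lower and grey bars were not called. The marneral and thalianol synthesis genes lie below 0, while AT5G42570 (left edge), AT5G48020 and PUX5 (right edges) lie near 0. The opposite edges of those windows hold MRN1 and AT5G47980, both called lower, and CYP702A2 (-0.18, not called).

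Adjacent genes were called together elsewhere as well. In all, 76 called genes had a next neighbour among the genes used that was called in the same direction, and 7 runs held 3 or more such genes. Of all genes used 0.928% were higher and 1.95% lower, and whether 76 exceeds what these shares would give was not tested. The run on chromosome 2 (3361474 to 3399434) is made of copies of mitochondrial sequence, taken up below. Besides the clusters above, the runs included AT5G23820, AT5G23830 and AT5G23840, neighbours that encode MD-2-related lipid recognition proteins. AT5G23840 went from 129 to 66.2 FPKM and AT5G23830 from 334 to 212 FPKM. Another run held AT5G09960 with PEP7 and PROPEP4, precursors of elicitor peptides that signal damage, which went from 60.3 to 41.3 FPKM and from 47.0 to 32.9 FPKM. Cytochrome P450 genes as a family had 4 higher and 13 lower of 129, and 8 of the 13 are glucosinolate or triterpene genes named above. CYP86A1, which makes suberin monomers, was among the higher (42.8 to 68.5 FPKM). Of the genes named here outside the clusters, AT5G23840 alone kept its call under the stricter reading.

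Among transporters of potassium and sodium, 1 of 40 was higher (2.5%) and 2 were lower (5%), with a median of -0.01. The shares of all genes used were 0.928% and 1.95%. HAK5, the high-affinity potassium uptake carrier that is induced when potassium is scarce, went from 0.853 to 4.29 FPKM. HKT1, which withdraws sodium from the xylem, went from 13.6 to 5.69 FPKM. SKOR, a channel that loads potassium into the xylem, went from 12.7 to 7.71 FPKM, in a shared locus. The calcium sensor CBL8 and the kinase CIPK9, members of the families that regulate potassium channels, were also higher (3.86 to 10.9 FPKM and 2.23 to 4.13 FPKM, CIPK9 added after its values were seen). Among 27 aquaporins PIP2E was higher (13.6 to 19.6 FPKM) and TIP2;3 lower (147 to 111 FPKM), and 21 of the 27 ratios lay below 0 (median -0.14). The calls of HAK5 and HKT1 were kept under the stricter reading, and those of SKOR, CBL8, CIPK9, PIP2E and TIP2;3 were lost.

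Of 40 genes of the abscisic acid and dehydration response used, 5 were higher (12.5%, against 0.928% of all genes used) and none was lower, and 35 had a centred ratio above 0 (median 0.16). The cold- and dehydration-induced KIN1 went from 83.7 to 218 FPKM and its tandem copy KIN2 from 1123 to 1515 FPKM. LTI78 went from 10.6 to 15.3 FPKM, DREB2A, a transcription factor of the drought response, from 9.33 to 12.9 FPKM, and the dehydrin RAB18 from 0.406 to 1.67 FPKM. AT2G23120, a late embryogenesis abundant protein, went from 316 to 518 FPKM. Under the stricter reading 2 of the 5 calls remained, those of KIN1 and RAB18, and the call of AT2G23120 was lost. On NaCl the list had 5 higher and 6 lower of 39 genes with a median of -0.01. The shares of all genes used on NaCl were 3.12% higher and 3.75% lower. RAB18 was called in the opposite direction on NaCl (2.102 FPKM in WT and 0.788 FPKM in 6-6).

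Phosphate starvation genes had 3 lower (10.3%, against 1.95% of all genes used) and none higher of 29, with a median of -0.10. AT4, a transcript that sequesters the phosphate microRNA, went from 66.1 to 36.3 FPKM, the phosphatase gene PS2 from 8.06 to 5.31 FPKM and the phosphate sensor gene SPX1 from 20.5 to 14.3 FPKM. Iron acquisition genes had 2 lower of 28 (7.14%). These were CYP82C4, which makes a coumarin exported under iron shortage (162 to 121 FPKM), and IREG2, a vacuolar metal carrier (4.11 to 2.43 FPKM). AT3G12900, which makes fraxetin in the same coumarin route, was lower as well (9.91 to 3.99 FPKM). The stricter reading kept the calls of AT4 and AT3G12900, and those of PS2, SPX1, CYP82C4 and IREG2 were lost.

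The bases before the gene start, from RefSeq for TAIR10.1, are shown for genes of the 2 last groups because their regulators bind short known motifs. Capitals mark ACGTG, the core of the abscisic acid response element, on either strand in KIN1 (chr5:5209467-5209716) and KIN2 (chr5:5211469-5211718), and GNATATNC, the phosphate response motif P1BS, in AT4 (chr5:894332-894581) and PS2 (chr1:27466349-27466598, minus strand).
KIN1: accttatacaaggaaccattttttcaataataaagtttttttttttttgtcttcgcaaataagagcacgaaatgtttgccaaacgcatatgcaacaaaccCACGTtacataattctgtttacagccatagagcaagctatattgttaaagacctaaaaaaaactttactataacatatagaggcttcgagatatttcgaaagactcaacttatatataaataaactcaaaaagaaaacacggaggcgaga
KIN2: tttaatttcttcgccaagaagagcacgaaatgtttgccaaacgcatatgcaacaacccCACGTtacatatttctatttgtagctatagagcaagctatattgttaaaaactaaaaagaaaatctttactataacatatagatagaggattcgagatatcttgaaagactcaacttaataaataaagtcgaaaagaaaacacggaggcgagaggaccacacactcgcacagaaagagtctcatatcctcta
AT4: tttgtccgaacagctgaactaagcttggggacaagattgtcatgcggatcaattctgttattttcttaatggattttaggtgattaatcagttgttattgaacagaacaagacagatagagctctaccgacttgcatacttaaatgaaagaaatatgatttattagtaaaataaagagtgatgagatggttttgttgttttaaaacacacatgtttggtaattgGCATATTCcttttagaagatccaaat
PS2: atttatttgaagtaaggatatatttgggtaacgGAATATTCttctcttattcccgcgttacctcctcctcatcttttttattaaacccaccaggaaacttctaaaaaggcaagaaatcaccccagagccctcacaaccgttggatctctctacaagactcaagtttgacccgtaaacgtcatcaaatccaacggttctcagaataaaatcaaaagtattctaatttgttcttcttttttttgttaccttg

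Searched on both strands from 250 bases before the start to 50 after it, ACGTG was found in 27.8% of the 18691 promoters of genes used, in 38.5% of those of higher genes and in 33.6% of those of lower genes. It was found in 4 of the 5 higher genes of the dehydration list and in 57.5% of the whole list. The share was also above that of all promoters in the other groups described, at 58.8% of the extensin list, 55% of the aliphatic glucosinolate list and 47.1% of the triterpene list. GNATATNC, which reads the same on both strands, was found in 6.12% of all promoters, in all 3 lower phosphate genes and in 37.9% of the phosphate list. It was also found in KIN1 and KIN2, where it is left in lower case above, and so in 2 of the 5 higher dehydration genes. CACGTG, the G-box, which contains ACGTG, was found in 8.70% of all promoters, 3.45% of those of higher genes and 9.64% of those of lower genes. The heat shock element was found in 0.551% of all promoters, 1.72% of those of higher genes and 1.1% of those of lower genes. These matches describe letters in a window and were not tested.

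In other families, nitrate and sulfate genes had 2 lower of 28 (7.14%, against 1.95% of all genes used). These were the nitrate reductase NIA1 (28.6 to 20.4 FPKM) and the sulfate-assimilating APR1 (42.9 to 32.5 FPKM). Against 0.928% higher of all genes used, auxin genes had 1 higher of 44 (2.27%). This was GH3.3, which attaches amino acids to auxin (3.45 to 7.07 FPKM). Heat shock proteins and chaperones had 3 higher of 106 (2.83%) and none lower. Among the 3 were HSP70 (28.0 to 38.3 FPKM) and HSP90.1 (6.19 to 9.39 FPKM). Against 1.95% lower of all genes used, jacalin-related lectins and nitrile specifiers had 4 lower of 27 (14.8%), GDSL lipases 4 lower of 37 (10.8%; GLIP4 from 3.33 to 1.56 FPKM), and sugar transporters 2 lower of 21, of which SWEET11 went from 4.54 to 2.71 FPKM. Cysteine-rich receptor-like kinases had 3 lower of 10 (30%), CRK26, CRK27 and CRK34. Of the genes named here, the stricter reading kept the calls of GH3.3 and HSP90.1. It lost those of NIA1, APR1, HSP70, GLIP4, SWEET11, CRK26, CRK27 and CRK34. Cytosolic ribosomal proteins had 2 lower of 320 (median 0.04), pentatricopeptide and tetratricopeptide proteins none called of 416, and bHLH transcription factors none of 82. In all, 8 of 64 lists drawn up from descriptions and symbols had no call, and 198 of the called genes belonged to at least 1 list.

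**Figure D5:**
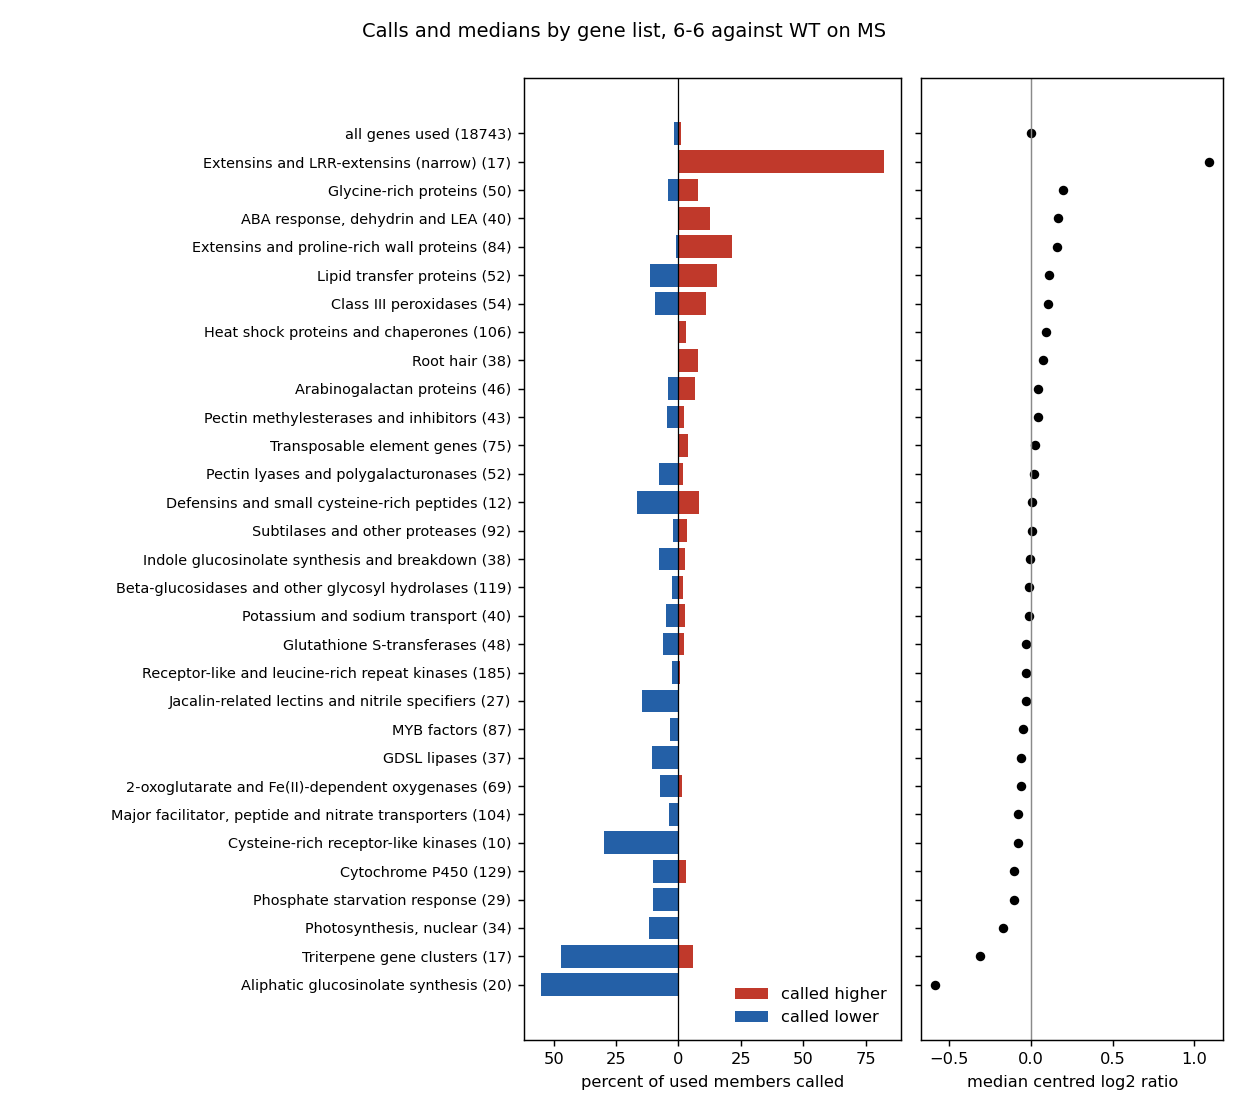
Gene lists with 3 or more calls, with the number of genes used in parentheses. The left panel gives the percent of members called higher (red, to the right) and lower (blue, to the left), and the right panel the median centred log2 ratio. Extensins stand apart at 82.4% higher, and aliphatic glucosinolate and triterpene genes at 55.0% and 47.1% lower, against 0.928% and 1.95% for all genes used in the top row.

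The called genes with the highest ratios outside these groups were mostly of low level. AT4G04223, described as an other RNA, went from 3.32 to 26.4 FPKM and had the highest centred log2 ratio of the called genes, 3.06. CCL, a CCR-like gene, went from 0.748 to 4.202 FPKM, and BEE1, a brassinosteroid-responsive transcription factor gene, from 0.395 to 1.47 FPKM. BGLU45, a beta-glucosidase acting on monolignol glucosides, went from 0.389 to 1.41 FPKM. AT1G15405 was more abundant and went from 28.4 to 97.6 FPKM on MS, with a centred log2 ratio of -0.01 on NaCl. Of AT1G15405 100%, of AT4G04223 39.8%, of AT2G01008 32.1% and of AT2G16586 16.4% of the 50-base stretches occur in another gene. The values of these genes are therefore uncertain. The calls of AT2G16586, CCL, BEE1 and BGLU45 were lost under the stricter reading, and that of AT2G01008 was kept. Also lost were those of MRD1, MYB19, LBD41, HIPP20 and NAC074, named next. After ITPK4 the lowest ratios among called genes were those of AT4G33720, a pathogenesis-related 1 family protein (8.84 to 1.18 FPKM), MAF4, a regulator of flowering time (1.51 to 0.268 FPKM), AT1G44030, a zinc-binding C1 domain protein (1.4 to 0.282 FPKM), and MRD1 (28.7 to 7.89 FPKM). MYB19 went from 2.33 to 0.675 FPKM, LBD41, a transcription factor gene that responds to low oxygen, from 3.96 to 1.503 FPKM, HIPP20, a heavy metal-associated protein gene, from 2.98 to 1.17 FPKM, and the amino acid exporter UMAMIT14 from 39.6 to 19.3 FPKM. NAC074, a NAC domain protein gene, went from 1.58 to 0.635 FPKM.

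Markers of the cells a root tip holds were measured alongside. No gene of root meristem and root cap was called of 19 used, with summed values of 456 FPKM in WT and 478 FPKM in 6-6. Root hair genes had 3 higher of 38 (7.89%, against 0.928% of all genes used), with summed values of 1905 and 2042 FPKM and a median of 0.07. The 3 were LRX1, LRX2 and PRP3, all wall proteins, and all 3 calls were lost under the stricter reading. No xylem, phloem or secondary wall gene was called of 21, with summed values of 582 and 523 FPKM and a median of -0.11. Nuclear photosynthesis genes, which mark green tissue, had 4 lower of 34 (11.8%, against 1.95% of all genes used). CAB1 went from 36.0 to 21.4 FPKM, and the summed values were 676 and 604 FPKM. The stricter reading kept the call of CAB1 and lost those of LHCB5, RBCS1A and LHCB2.1. The part of cell composition in the results above was not tested.

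Transcripts of the organelles also differed between the groups on MS. Of 38 tested mitochondrial genes at or above 1 FPKM 20 were higher in 6-6 and none was lower (median centred log2 ratio 1.6), and of 51 plastid genes 23 were higher and none lower (median 1.27). On NaCl the medians were -0.17 over 28 mitochondrial genes and -0.37 over 44 plastid genes. Among the nuclear genes used, 14 on chromosome 2 (3244557 to 3478704) have at least 50% of their 50-base stretches in the mitochondrial genome. In these 14, 8 were higher and none was lower, with a median of 1.65, and they include 4 of the 15 highest ratios among called genes with both values above 0, AT2G07733, AT2G07811, AT2G07747 and AT2G07687. Reads from those shared stretches cannot be assigned to the chromosome or the organelle by sequence. The following 60 coding bases of AT2G07687, a cytochrome c oxidase subunit III gene (chr2:3312592-3312651, minus strand, TAIR10.1; it went from 1.11 to 3.80 FPKM), occur unchanged in the mitochondrial genome.
AT2G07687: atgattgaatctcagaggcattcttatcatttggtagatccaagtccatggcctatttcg
None of the extensin, glucosinolate or triterpene genes above is such a copy, and without the 14 genes there were 166 higher and 366 lower genes.

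The same contrast measured on NaCl used other samples. There 1306 of 19022 genes were called (6.87%), 593 higher (3.12%) and 713 lower (3.75%). Over the 18501 genes used in both comparisons, 85 were higher on both media, which is 50.6% of the 168 higher on MS and 15.8% of the 539 higher on NaCl. Lower on both were 95 genes, 26.1% of the 364 on MS and 14.1% of the 675 on NaCl. Of the genes higher on MS 86.9% had a ratio above 0 on NaCl, with a median of 0.50, and of those lower on MS 75.3% lay below 0, with a median of -0.14. Over all 18501 genes 49.6% lay above 0 on NaCl and 50.4% below 0. Opposite calls were made for 8 genes, 3 higher and 5 lower on MS. Whether an effect differed between media was not tested, since no values per sample were used.

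Of the 22 repeat-rich genes 10 were higher on NaCl and none was lower, with a median of 0.32. The share of all genes used on NaCl was 3.12% higher. EXT4 went from 55.5 FPKM in WT to 154 FPKM in 6-6 on NaCl, with a centred log2 ratio of 1.52 as on MS. EXT3, at 1051 and 1088 FPKM, and AT1G23720, at 308 and 262 FPKM, were not called there. Against 3.75% lower of all genes used on NaCl, aliphatic glucosinolate genes had 4 lower of 19 and a median of -0.13. Triterpene genes had 5 lower of 16 and a median of -0.08. MRN1 was lower again (45.1 and 21.5 FPKM), while THAS1 stood at 62.95 and 58.2 FPKM.

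The genes with the largest ratios on both media (called on each) were, on the higher side, AT4G04223, GRP3S, HAK5, AT4G18280, AT1G64370, EXT4, AT4G14548, CBL8, PDF2.1 and AT5G26270. On NaCl HAK5 went from 1.06 to 4.61 FPKM, and the glycine-rich wall protein gene AT4G18280 from 5.75 to 33.6 FPKM (2.205 to 7.60 FPKM on MS). On the lower side they were ITPK4, AT1G44030, MRD1, AT3G12900, MRN1, AT1G22980, AT1G49570, GLIP4, AT5G04120 and AT3G46810. HKT1 was lower on both media, at 13.9 and 8.12 FPKM on NaCl.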

How the data were processed

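RNA was sequenced from root tips in 12 samples of 4 groups. Build TAIR10 and the tools HISAT2, HTSeq and edgeR are given by the submitters' processing notes, and the tools' versions and roles are not given in the sources used here. Per the file headers, the 4 deposited tables have the layout of Cuffdiff's gene output. They hold 1 FPKM value per group made by the authors, a signed score per gene deposited as the test statistic, and the p-values and q-values that the authors deposited, of which the smallest p-value is 5e-05. The q-values equalled a Benjamini-Hochberg adjustment of the p-values over tested genes to within 5.26e-07.

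Effects, counts and medians were computed with Python 3.11.15, pandas 2.3.3, numpy 2.4.6 and scipy 1.17.1, and centred as described above. The adjustment and centring were tested on simulated data. No test across samples was run, because values per sample were not used here. The only p-values computed were those taken from the deposited test statistic under a normal distribution (the stricter reading), and the depth per sample is unknown. Genes to name were drawn from ITPK4 and the 15 highest and 15 lowest called ratios with both values above 0. Also used were the 10 strongest per direction on both media and up to 4 members per list by p-value. Not all of these list members are named. Other genes named in the text were chosen after their values were seen. The gene lists and members were chosen with earlier results of these data known. List entries were corrected by symbol or description where they matched unrelated genes, and 1 list (extensins by description), the repeat count and the cluster windows were added after values were seen. Sequences, GC content and 50-base stretches come from RefSeq TAIR10.1, matched by locus for 18692 of 18743 genes. File positions had 1 added to the start. A few genes are not reported here.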

Additional observations from a re-analysis of the deposited data

Results flagged for a closer look

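Organelle transcripts lie outside the nuclear genes of the comparison and gave a signal there. The median centred log2 ratio of 6-6 over WT on MS was 1.6 over 38 mitochondrial genes and 1.27 over 51 plastid genes. Summed mitochondrial values over these genes were 1125 FPKM in WT and 3425 FPKM in 6-6 on MS. On NaCl they were 1156 and 990 FPKM over 28 genes. Summed plastid values were 113 and 253 FPKM on MS, and 115 and 88.9 FPKM over 44 genes on NaCl. The gene sets of the 2 media thus differ.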

How the results depend on the processing

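The counts of genes higher and lower stayed within 1.5 times without a minimum FPKM (177 and 367), at 5 FPKM (141 and 332), without shared loci (166 and 345) and after adjustment over the nuclear genes alone (166 and 350). Centring and pseudocount cannot change these counts, which rest on the authors' q-values. At a q-value below 0.01 they were 96 and 144, the dehydration list had 3 higher genes, and 51 genes were higher and 38 lower on both media. Under the stricter reading of the test statistic they were 50 and 38, with 3 triterpene genes lower and 2 dehydration genes higher. The cause was not tested. The centred log2 of ITPK4 ranged from -3.08 to -2.65 (pseudocount 1). Group values from the salt tables, which hold the same samples scaled anew, could not change a q-value and turned no direction. Of 40 named genes, 18 lost their call under the stricter reading and 8 at the stricter q-value, and none changed direction. At a minimum of 5 FPKM only 21 of the 40 remained, the others being of lower level, and 3 list medians weakened or moved. Calls without the mitochondrial copies (166 and 366) and centring within 5 GC bins (174 and 363, over the genes with a GC value) were added after the data were seen. Leave-one-out was not run. No paired analysis was possible because each table holds 1 combined value per group. Without counts or depth, no interval can be given for any value.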
